A study of Mus musculus with 16 samples.

Results

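The genes described here are 10 liver genes whose RNA depends on how growth hormone (GH) is secreted, compared across 16 libraries of mouse liver RNA. They were taken by symbol: A1bg, Hao2, Prom1, Abcd2 and Nipal1 as genes favoured by continuous GH, and Elovl3, Slco1a1, Susd4, Cyp4a12a and Cyp4a12b as genes favoured by pulsatile GH. Of these 10, 8 had a row among the 15544 genes of the table, namely all 5 continuous-GH genes and 3 of the 5 pulsatile-GH genes. Cyp4a12a and Cyp4a12b, a near-identical pair of fatty acid hydroxylases of the P450 family, were not analysed here. Susd4 did not pass the filter on low values, so 7 genes were tested.

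The livers came from females 27 weeks of age, kept on chow or challenged for 17 weeks with a high-fat diet (HFD). Controls were Esr1fl/fl, with both copies of Esr1 floxed, which encodes oestrogen receptor alpha. Mutants were Esr1Nkx2-1Cre, which carry the same floxed alleles together with a Cre recombinase driven by Nkx2-1, so that the receptor is lost in Nkx2-1-expressing cells of the hypothalamus. Nkx2-1 is also active in developing lung and thyroid, and hepatocytes are not its target. The line was kept on a mixed CD-1 and 129P2 background. This gave 4 groups of 4 bulk RNA-seq libraries. Each library is called a liver below, although the labels do not say that each came from a separate animal. Every value is a TPM level (a share of the library, adjusted for transcript length) that had, as inferred from the values, been adjusted between libraries by size factors, and is called adjusted TPM. Libraries are named by group and replicate number, given in the order of the samples, and the numbers pair no libraries.

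GH is released by the pituitary in sharp pulses in male mice and in a more even pattern in females. In the liver it binds the GH receptor, activates the kinase JAK2 and through it the transcription factor STAT5b, and the pattern of this signal sets many sex differences in liver RNA. Genes of the female pattern are held high by continuous GH, often together with HNF6 (Onecut1) and CUX2, and genes of the male pattern are held high by pulses, with BCL6 acting as a repressor of female-pattern genes. GH release is itself controlled by the hypothalamus. None of these hormones was measured here.

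The promoters of A1bg, Nipal1 and Slco1a1 are shown because A1bg and Nipal1 separated the chow livers by genotype and Slco1a1 separated the HFD livers by the series of their library titles. RefSeq (GRCm38.p6) gave 8 promoter windows for 6 of the 10 genes, and each window is the 250 bases before an annotated start. Capitals mark matches to the core STAT5 motif TTCNNNGAA, which reads alike on both strands, or to the core HNF6 motif ATCAAT on either strand.
A1bg: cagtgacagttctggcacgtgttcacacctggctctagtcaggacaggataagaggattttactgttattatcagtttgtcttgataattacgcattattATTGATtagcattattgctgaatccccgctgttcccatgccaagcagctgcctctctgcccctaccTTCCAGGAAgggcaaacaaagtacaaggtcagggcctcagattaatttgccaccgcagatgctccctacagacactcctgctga
Nipal1: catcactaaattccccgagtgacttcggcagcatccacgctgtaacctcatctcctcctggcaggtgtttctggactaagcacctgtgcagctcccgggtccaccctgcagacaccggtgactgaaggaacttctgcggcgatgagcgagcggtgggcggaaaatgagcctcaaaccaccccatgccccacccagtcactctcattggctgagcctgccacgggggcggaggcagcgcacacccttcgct
Slco1a1: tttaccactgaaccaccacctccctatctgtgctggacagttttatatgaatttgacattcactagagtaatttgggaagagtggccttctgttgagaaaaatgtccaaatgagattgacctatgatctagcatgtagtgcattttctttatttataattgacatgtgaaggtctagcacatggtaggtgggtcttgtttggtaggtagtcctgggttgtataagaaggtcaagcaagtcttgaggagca
The A1bg window, chr15:60921271-60921520 on the minus strand, held 1 match to each motif, and the matches did not overlap. This window lies inside the A1bg gene span of 60896859 to 60923012 given below. Its RefSeq start is thus not the outermost annotated start of the gene. The STAT5 match TTCCAGGAA began 84 bases before the start and the HNF6 match, ATTGAT on the strand shown, began 150 bases before it. The Nipal1 window, chr5:72647546-72647795 on the plus strand, held neither motif. The Slco1a1 window, chr6:141946963-141947212 on the minus strand, held neither motif as well. Of all 32851 windows of this length, 7.02% held the STAT5 motif and 6.72% held the HNF6 motif. Among the 8 windows of these genes, 1 held each. A match is a description of the letters, and no binding was measured.

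Facts of all 16 libraries bear on the values below. Column totals ranged from 905897 to 1119703, and between 11834 and 12443 genes reached 1 adjusted TPM in a library. The scale keeps no read depth, so the depth is unknown. The hepatocyte markers Alb and Apoa1 were high in every library, at 36044 or more and 5471 or more. Liver Esr1, which the Cre driver does not target, ranged from 6.14 to 22.9 and did not check the genotype labels. Rps7, named here after its values were seen, separated the labels, at 15.5 to 34.3 in controls and 143 to 210 in mutants. The numbers in the library titles fell into a lower and a higher series within each diet. The numbers of the lower HFD series stood far below those of every other series. In HFD the lower series held 3 controls and 1 mutant (Mutant_HFD 1) and the higher series held 3 mutants and 1 control (Control_HFD 4). In chow the lower series held 2 controls and 1 mutant and the higher series held 2 controls and 3 mutants. What these numbers stand for is not given, and series and diet cannot be told apart. The summed level of 10 acute-phase genes, liver genes induced in inflammation, was 90832 in Mutant_Chow 2, 18272 in Control_HFD 1 and 12218 in Mutant_Chow 1, against 4932 to 8281 in the other 13 libraries. In bulk liver, fewer cells of a type and less RNA per cell cannot be told apart.

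The 8 measured genes spanned a wide range of abundance. In controls on chow the mean level was 961 ± 755 adjusted TPM (SD, n = 4) for A1bg, 153 ± 44 for Slco1a1 and 115 ± 41.8 for Hao2. Abcd2 followed at 29.6 ± 4.52, Nipal1 at 14.1 ± 3.61 and Prom1 at 4.84 ± 3.41. Elovl3 at 2.13 ± 0.763 and Susd4 at 0.532 ± 0.283 were the lowest. In these 4 livers the ranges of neighbours in this order overlapped between A1bg and Slco1a1, Slco1a1 and Hao2, Nipal1 and Prom1, and Prom1 and Elovl3, and did not overlap between the other neighbours.

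A1bg, which encodes a secreted plasma protein of the immunoglobulin superfamily and is a female-pattern gene of mouse liver, ranged from 11.4 to 6141 adjusted TPM. It lies on the minus strand of chromosome 15 (GRCm38, positions 60896859 to 60923012, gene ENSMUSG00000022347). In controls on chow its levels were 483, 1368, 186 and 1806 adjusted TPM in replicates 1 to 4. In mutants on chow they were 6141, 4675, 3271 and 2867. Every mutant on chow exceeded every control on chow, with group means of 4238 ± 1486 and 961 ± 755 (SD, n = 4), a 4.41-fold ratio. In controls on HFD the levels were 31.4, 216, 91.7 and 165. In mutants on HFD they were 11.4, 3227, 2846 and 3484. Of the mutants on HFD, 3 thus lay above every control on either diet, whereas Mutant_HFD 1 had the lowest A1bg level of all 16 livers. The ratio of the HFD means was 19-fold with all 4 mutants and 25.3-fold without Mutant_HFD 1.

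**Figure D1:**
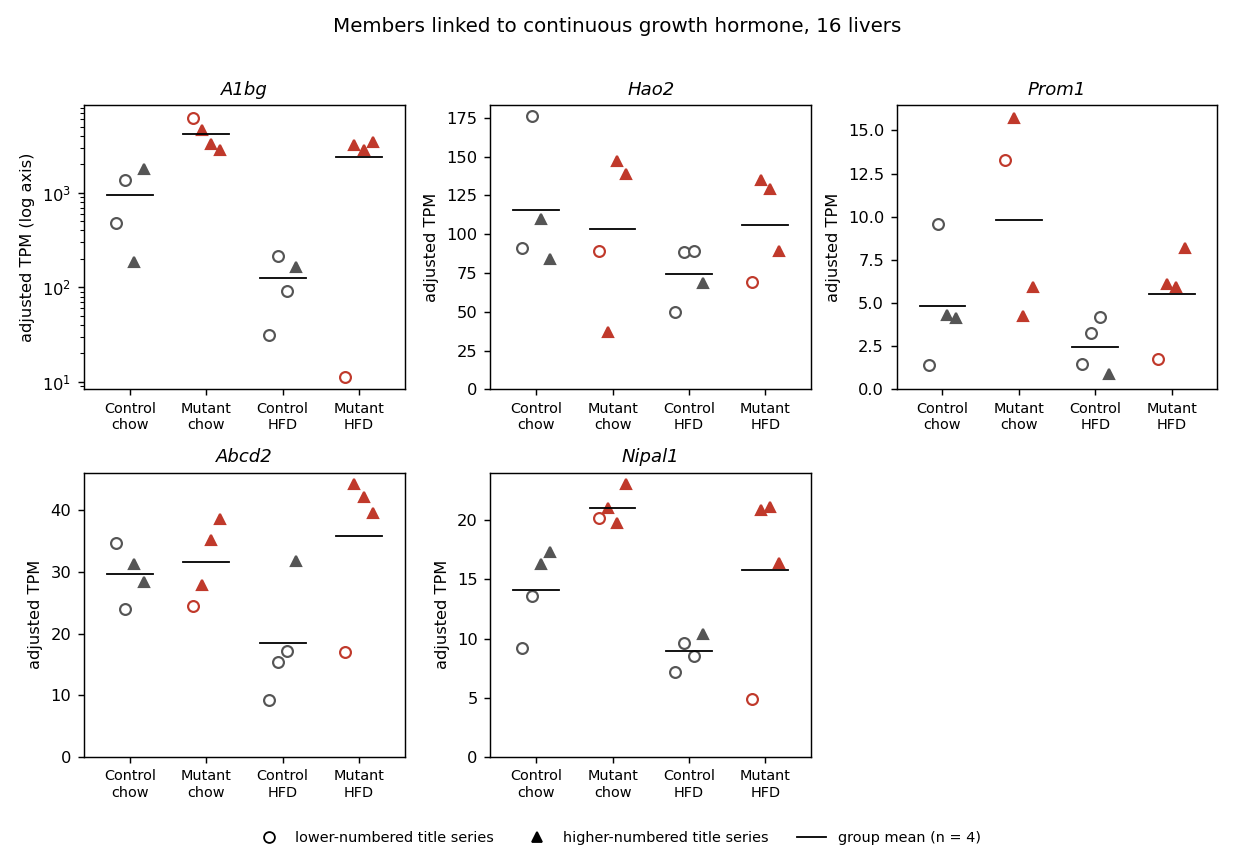
Adjusted TPM of the 5 continuous-GH genes in each of the 16 livers, by group, with a log axis for A1bg and linear axes from 0 for the others. Circles are the lower-numbered and triangles the higher-numbered title series, grey is control and red is mutant, and bars are group means (n = 4). A1bg in mutants sat between 2846 and 6141 except for Mutant_HFD 1 at 11.4, the lowest point of the panel.

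Nipal1, a member of the NIPA family of magnesium transporters on chromosome 5 (plus strand, 72647795 to 72671078), followed a pattern like that of A1bg at a much lower level. Controls on chow were at 9.22, 13.6, 16.3 and 17.3 adjusted TPM and mutants on chow at 20.2, 21, 19.8 and 23.1. Controls on HFD were at 7.21, 9.59, 8.49 and 10.4 and mutants on HFD at 4.86, 20.9, 21.1 and 16.4. On chow the genotypes did not overlap, and the ratio of means was 1.49-fold. On HFD they separated apart from Mutant_HFD 1, again the lowest liver of all. Across the 16 livers the deviations of A1bg and Nipal1 from their group means had a Pearson correlation of 0.855 on the log2 scale, with the points sharing libraries and title series. Without Mutant_HFD 1 it was 0.299 over 15 libraries, so the correlation rested mainly on that library.

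Abcd2, a peroxisomal transporter of very long-chain fatty acids on chromosome 15 (minus strand, 91145871 to 91191799), did not separate the genotypes on chow. Its levels were 34.7, 24, 31.3 and 28.3 adjusted TPM in chow-fed controls and 24.5, 27.9, 35.2 and 38.6 in chow-fed mutants. On HFD they were 9.22, 15.4, 17.2 and 31.7 in controls and 17, 44.3, 42.2 and 39.5 in mutants. The 3 lowest HFD controls and Mutant_HFD 1, all of the lower title series, lay at 17.2 or below, while Control_HFD 4 and the other mutants, all of the higher series, lay at 31.7 or above. The genotypes overlapped, and the ratio of means on HFD was 1.95-fold, from 35.7 ± 12.7 (SD, n = 4) in mutants and 18.4 ± 9.51 (SD, n = 4) in controls. Without Mutant_HFD 1 the mutants were at 42 ± 2.4 (SD, n = 3) and the ratio was 2.29-fold.

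Hao2, a peroxisomal oxidase of 2-hydroxy acids on chromosome 3 (minus strand, 98874521 to 98893239), overlapped between genotypes on both diets. Levels in controls on chow were 91.2, 176, 110 and 84.1 adjusted TPM, and in mutants on chow 89.4, 36.9, 147 and 139. In HFD controls they were 50.1, 88.8, 89.5 and 68.9, and in HFD mutants 69.5, 135, 129 and 89.4. The lowest value of the gene was in Mutant_Chow 2, the library with the highest acute-phase sum. Prom1, which encodes the membrane protein prominin-1 (CD133), lies on chromosome 5 (minus strand, 43993620 to 44102032) and also overlapped. It was at 1.39, 9.55, 4.3 and 4.12 in chow-fed controls and at 13.3, 15.7, 4.24 and 5.92 in chow-fed mutants. In HFD controls it was at 1.5, 3.27, 4.21 and 0.902, and in HFD mutants at 1.76, 6.12, 5.93 and 8.18. The 2 highest livers, Mutant_Chow 1 and 2, were those with the higher acute-phase sums in their group. Prom1 is also a marker of bile duct cells. The summed level of 6 bile duct markers ranged from 29 to 45.8, and most of it was Spp1, at 25.1 to 42.1. Krt7 was at 0.899 or less, and Krt19, Epcam, Sox9 and Cldn7 were each at 2.55 or less, so the sum mainly follows Spp1. The highest bile duct sum was in Mutant_Chow 2, where Prom1 was also highest, and the part of bile duct cells in the Prom1 values was not tested.

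Of the pulsatile-GH genes, 3 were measured. Slco1a1, the male-predominant uptake transporter of bile acids and steroid conjugates on chromosome 6 (minus strand, 141907282 to 141946962), was at 171, 104, 133 and 205 adjusted TPM in chow-fed controls and 50.2, 78, 215 and 161 in chow-fed mutants. In HFD controls it was at 64.2, 58, 73.8 and 275, and in HFD mutants at 46.9, 226.3, 231.2 and 136.6. Groups overlapped, and the HFD livers split by title series instead: the 4 of the lower series lay at 73.8 or below and the 4 of the higher series at 136.6 or above, in both genotypes. The 2 lowest chow livers were Mutant_Chow 1 and 2, the libraries with the higher acute-phase sums. Elovl3, a fatty acid elongase on chromosome 19 (plus strand, 46131897 to 46135694), was low throughout, from 0.758 to 3.05, with group means of 2.13 and 2.44 on chow and 1.4 in each genotype on HFD. It is also expressed in fat. Of 5 genes listed as fat markers, Adipoq and Lep had no row. Plin1 was at 0.149 or less, Cidec at 4.12 to 13.5 and Car3 at 445 to 3360. These levels lie far apart, so they give no single reading of fat content. The part of fat in the Elovl3 values was not tested. Susd4, a complement regulator on chromosome 1 (plus strand, 182763860 to 182896591), did not exceed 0.876. Its group means were 0.532 and 0.164 in chow-fed controls and mutants, and 0.497 and 0.259 in controls and mutants on HFD. It was listed at 0 in Mutant_Chow 2. In a fit with no filter on low values its log2 difference between genotypes was -0.39 on chow (limma adjusted p = 0.691) and -0.24 on HFD (limma adjusted p = 0.654).

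**Figure D2:**
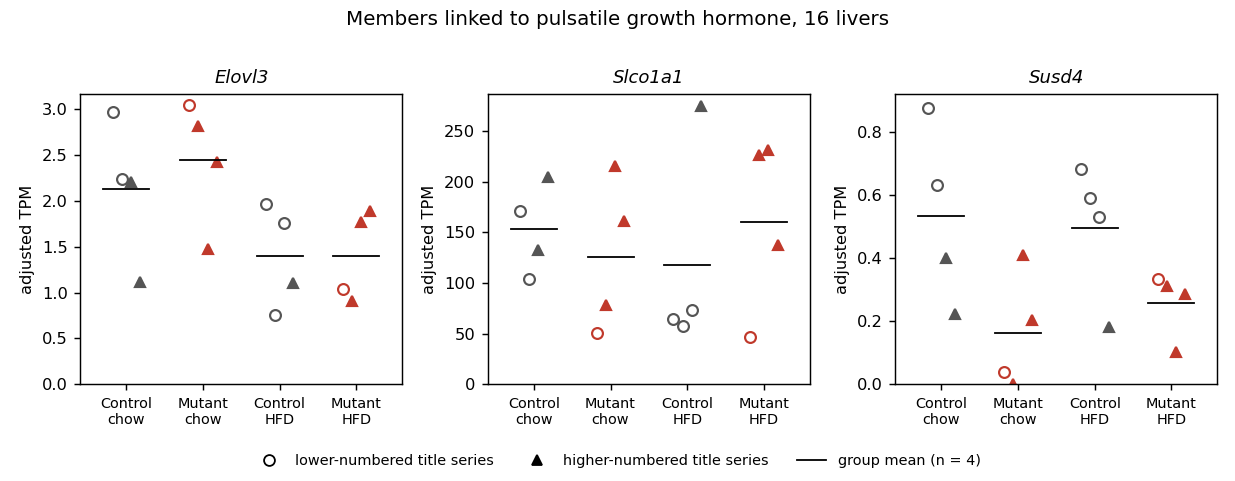
Adjusted TPM of the 3 measured pulsatile-GH genes in each of the 16 livers, by group, on linear axes from 0, with symbols and group means as in the plot of the continuous-GH genes. The HFD livers of the higher title series sit at 136.6 to 275 for Slco1a1 and those of the lower series at 46.9 to 73.8.

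Genotype was first compared on chow. With limma on log2(adjusted TPM + 1) and Benjamini-Hochberg adjustment over 12704 genes, 0 of the 7 tested genes passed an adjusted p of 0.05, and 0 had an unadjusted p under 0.05. Over all genes 3 passed, or 0.0236%. The log2 difference, mutant minus control, was 2.56 (SE 1.4, limma adjusted p = 0.848) for A1bg, 0.92 for Prom1 and 0.58 for Nipal1. For Slco1a1 it was -0.46 and for Hao2 -0.28. A1bg ranked 24 from the highest of 12704 differences, and its standard error was pooled over 4 groups that include Mutant_HFD 1. Its limma adjusted p was 0.563 or more under every alternative, the fit of only the chow groups among them. A1bg and Nipal1 were the 2 of 7 tested genes in which all 4 mutants lay above all 4 controls, and 1.95% of all tested genes did so. Without Mutant_Chow 1 and 2, a choice made after seeing the data, the difference was 0.24 for Prom1 and 0.32 for Slco1a1.

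On HFD, 0 of the 7 genes passed with all libraries, and 1, Abcd2, had an unadjusted p under 0.05. Over all genes 2 passed, or 0.0157%. The 5 continuous-GH genes all had positive differences, with a median of 0.89 against 0.02 over all genes tested. The log2 difference was 2.96 (SE 1.4, limma adjusted p = 0.577) for A1bg, 0.96 (SE 0.321, limma adjusted p = 0.527) for Abcd2 and 0.6 (SE 0.325, limma adjusted p = 0.59) for Nipal1. All 4 mutants lay above all 4 controls in 0 of the 7 genes and in 1.39% of all genes. Leaving out Mutant_HFD 1 changed these calls. A1bg then differed by 4.96 (limma adjusted p = 0.00296), Nipal1 by 1.05 (limma adjusted p = 0.0119) and Abcd2 by 1.27 (limma adjusted p = 0.0442), so that 3 of 7 genes passed, where 1.11% of all genes did. The mutants left are all of the higher title series and all controls but Control_HFD 4 of the lower. Genotype and title series thus largely coincide in that fit. Leaving out any other HFD library gave 0 of 7. With weights that count variable libraries less, A1bg, Abcd2, Nipal1 and Slco1a1 passed, as did 3926 of all 12704 genes. The lowest weights went to Control_HFD 4 (0.228) and Mutant_HFD 1 (0.329). Genotype and title series thus largely coincide in the weighted fit as well. Over all alternatives the limma adjusted p ranged from 0.00296 to 1 for A1bg, from 0.00122 to 1 for Abcd2 and from 0.0048 to 1 for Nipal1. Liver Esr1 moved with these genes, at 6.14 to 8.09 in HFD controls, 6.42 in Mutant_HFD 1 and 20.5 to 22.9 in the other HFD mutants, with a difference of 1.06 (SE 0.344, limma adjusted p = 0.527), and its part in the result was not tested. With the title series as a term the differences were 0.73 for A1bg, 0.35 for Abcd2 and 0.08 for Nipal1, and that of Slco1a1 was -0.49. In that fit 0 of the 7 genes passed, with a limma adjusted p = 1 for each of the 7.

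**Figure D3:**
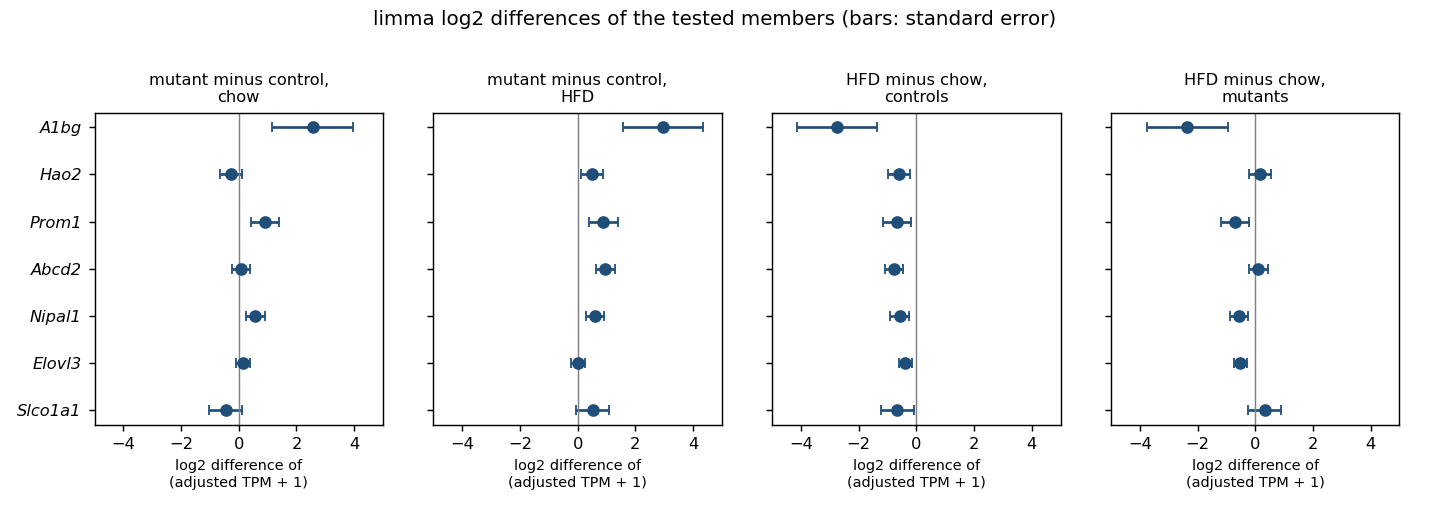
Log2 differences of adjusted TPM + 1 for the 7 tested genes in the 4 comparisons of 2 groups, as points with standard errors from the limma fit of all 16 libraries. A1bg has the farthest points from 0 in each panel, at 2.56, 2.96, -2.75 and -2.35, and none of the 28 points passed an adjusted p of 0.05.

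**Figure D4:**
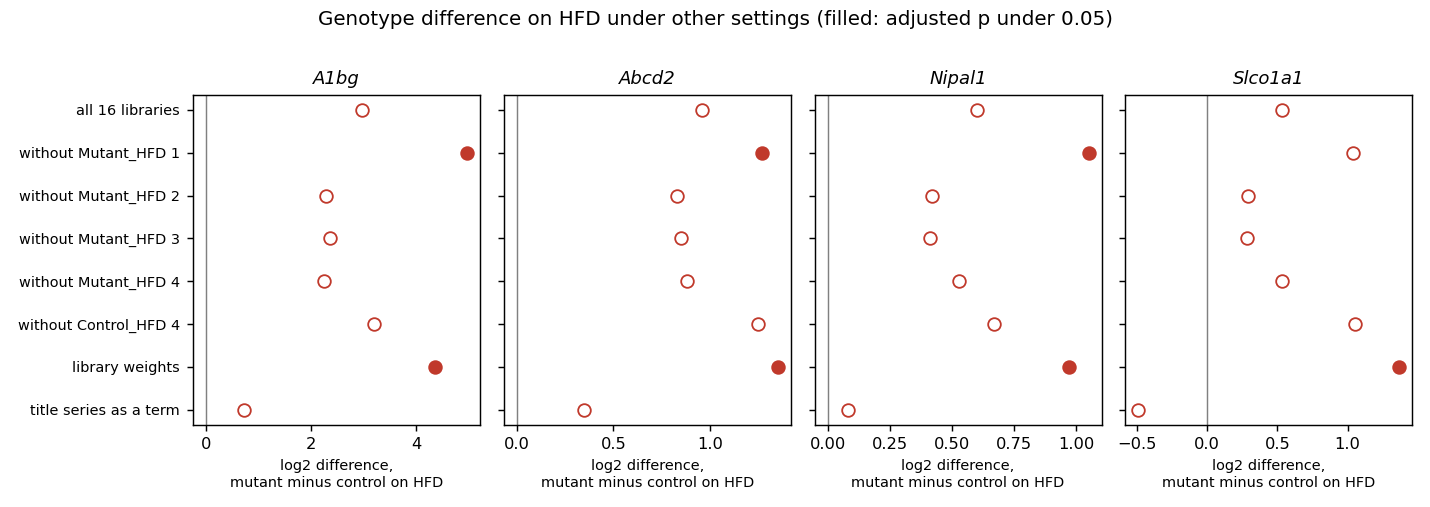
Log2 difference between mutants and controls on HFD for 4 genes under 8 settings of the fit, each panel with its own axis. Filled points have an adjusted p under 0.05, and A1bg moves from 2.96 with all libraries to 4.96 without Mutant_HFD 1 and 0.73 with the title series as a term.

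Within each title series the levels by genotype are given as a description, since each HFD series had a single library of one genotype. In the higher HFD series the 3 mutants had A1bg levels of 2846 to 3484 against 165 in the control. In the lower HFD series the mutant was at 11.4 and the 3 controls at 31.4 to 216. On chow the mutant of the lower series was at 6141 against 483 and 1368 in its controls, and the 3 mutants of the higher series were at 2867 to 4675 against 186 and 1806. A1bg was thus higher in mutants within 3 of the 4 series and lower within the lower HFD series. Nipal1 showed the same order: 16.4 to 21.1 against 10.4 in the higher HFD series, 4.86 against 7.21 to 9.59 in the lower one, 20.2 against 9.22 and 13.6 in the lower chow series, and 19.8 to 23.1 against 16.3 and 17.3 in the higher one. Prom1 in the higher HFD series was at 5.93 to 8.18 in the 3 mutants and 0.902 in the control, and in the lower series at 1.76 in the mutant and 1.5 to 4.21 in the controls.

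The series itself was then compared within HFD, with genotype as a term whose effect is taken as equal in both series. In that fit 4 of the 7 genes passed, all higher in the higher-numbered series, where 25.2% of all 12704 genes passed in either direction. They were A1bg at 4.47 (SE 1.23, limma adjusted p = 0.0187), Slco1a1 at 2.04 (SE 0.367, limma adjusted p = 0.00191), Abcd2 at 1.22 (SE 0.203, limma adjusted p = 0.00129) and Nipal1 at 1.04 (SE 0.264, limma adjusted p = 0.0127). The 4 included genes of both GH classes. Markers of other cells and states were read in the same fit, where 25.2% of all genes passed. Of the hepatocyte (5 tested), macrophage (5), bile duct (4), lymphocyte (3) and fat (2) markers, none passed. All 5 red blood cell markers were lower in the higher series, with a median of -1.1, and 2 passed, the haemoglobin gene Hba-a1 at -1.83 (limma adjusted p = 0.00727) and the haem synthesis gene Alas2 at -1.03 (limma adjusted p = 0.0314). Of 10 acute-phase genes 9 were lower, with a median of -1.38, and 1 passed, Saa3 at -3.02 (limma adjusted p = 0.0232). All 4 stellate cell markers were higher, and 1 passed, Reln at 0.55 (limma adjusted p = 0.0336). The median of all tested genes was 0.04, and the part of these markers in the result was not tested.

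Leaving out Mutant_HFD 1 or Control_HFD 4 leaves the series difference to rest on a single library, which the fit assumes to vary like the other groups, so neither fit bears on whether a series difference holds. Without Mutant_HFD 1 the difference was that of Control_HFD 4 from the 3 other controls, at 0.93 (limma adjusted p = 0.624) for A1bg, 0.28 (limma adjusted p = 0.474) for Nipal1, 1.17 (limma adjusted p = 0.0224) for Abcd2 and 2.06 (limma adjusted p = 0.0255) for Slco1a1. Without Control_HFD 4 it was that of the 3 other mutants from Mutant_HFD 1, at 8 (limma adjusted p = 0.00482) for A1bg, 1.8 (limma adjusted p = 0.00418) for Nipal1, 1.26 (limma adjusted p = 0.0326) for Abcd2 and 2.02 (limma adjusted p = 0.0503) for Slco1a1. Over all alternatives, these included, the limma adjusted p ranged from 0.00482 to 0.624 for A1bg, 0.00418 to 0.474 for Nipal1, 0.00147 to 0.0503 for Slco1a1 and 0.000966 to 0.0326 for Abcd2. Within chow 0 of 7 genes passed between the series, as did 0% of all genes, and 1 gene, Slco1a1 at 0.8, had an unadjusted p under 0.05 (1478 of all genes did).

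HFD was compared with chow within each genotype. In controls 0 of 7 genes passed, and 0% of all genes did (1641 had an unadjusted p under 0.05). All 7 differences were negative, from -0.38 for Elovl3 to -2.75 (SE 1.4, limma adjusted p = 0.422) for A1bg. Abcd2 at -0.77 (SE 0.321, limma adjusted p = 0.327) had an unadjusted p under 0.05, and without Control_HFD 4 its difference was -1.07 (limma adjusted p = 0.0423), the only 1 of 7 to pass, where 7.33% of all genes passed. Over all alternatives its limma adjusted p ranged from 0.0117 to 0.617. The HFD controls left without Control_HFD 4 were all of the lower HFD series, so diet and series cannot be told apart in that fit. In mutants 0 of 7 genes passed and 0% of all genes did (872 had an unadjusted p under 0.05). A1bg differed by -2.35 (SE 1.4, limma adjusted p = 0.782), and by -0.35 without Mutant_HFD 1. Elovl3 at -0.52 was the only 1 with an unadjusted p under 0.05 (limma adjusted p = 0.722). The interaction of genotype and diet passed for 0 of 7 genes and 0% of all genes (535 had an unadjusted p under 0.05, with 0 of the 7 among them), with log2 values of 0.99 (SE 0.809) for Slco1a1, 0.88 (SE 0.454) for Abcd2 and 0.4 (SE 1.98) for A1bg. The diet comparisons share the groups of the genotype comparisons, and the 5 sets of differences are not independent.

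Other genes of the same pathway were read beside these from lists written out by name. The lists were chosen with earlier results of these data known, so their counts are a description and test nothing about the lists. In the 5 comparisons of genotype and diet, 0 of 12 genes of the GH receptor and JAK-STAT list, 0 of 10 GH-responsive transcription regulators, 0 of 20 other female-biased genes and 0 of 21 tested male-biased genes passed in the limma fit. An unadjusted p under 0.05 was found between genotypes on HFD for 12 of the 20 female-biased genes, against 8.6% of all genes. Between diets in controls it was found for 11, against 12.9%. The corresponding counts of male-biased genes were 6 and 3 of 21, and those of the GH receptor and JAK-STAT list were 2 and 1 of 12. For the regulators they were 0 and 3 of 10. In the comparison of genotype on chow the count was 3 of 20 female-biased genes, 6 of 21 male-biased genes, 1 of 12 in the GH receptor and JAK-STAT list and 1 of 10 regulators, against 6.08% of all genes. For diet in mutants it was 1, 4, 4 and 1 in that order, against 6.86%, and for the interaction 0, 2, 1 and 1, against 4.21%. The counts pool both directions. For genotype on chow the 3 female-biased genes differed by 2.639, 2.41 and -3.124 and the 6 male-biased genes by -2.687 to 0.462. For genotype on HFD the 6 male-biased genes differed by -2.925 to 0.964. For diet in mutants the 4 genes of the GH receptor and JAK-STAT list differed by -1.357 to -0.289. The chow group of that comparison holds Mutant_Chow 1 and 2, with acute-phase sums of 12218 and 90832, and their part was not tested. The median log2 difference of the female-biased list was 0.44 on chow and 0.98 on HFD for genotype, and -1.01 in controls and -0.23 in mutants for diet. That of the male-biased list was -0.28, -0.3, 0.05 and 0.12, against medians of all tested genes between -0.01 and 0.02. Without Mutant_HFD 1, 9 of the 20 female-biased genes were higher in mutants on HFD, among them Cyp2c40 and Prlr, and 1 male-biased gene, the P450 Cyp2d9, was lower. The background was again 1.11%, and genotype and title series largely coincide in that fit, as given above.

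Between the HFD title series, 25.2% of all tested genes passed in either direction. The counts of each list, again a description, are to be read against that share. Of 20 female-biased genes 9 passed, all higher in the higher series. By smallest adjusted p they were led by the prolactin receptor gene Prlr at 1.29 (limma adjusted p = 0.00125) and the P450 gene Cyp3a16 at 2.22 (limma adjusted p = 0.00321), and they included Cyp2c40. Of the GH receptor and JAK-STAT list 4 of 12 passed, all higher: Ghr at 0.62, Jak2 at 0.55, the feedback inhibitor Socs2 at 1.69 and Igf1 at 0.46. Of the regulators 3 of 10 passed, all higher, namely Rora, Trim24 and Onecut1. Of 21 male-biased genes 3 were higher and 2 lower, with Ugt2b1 at 0.69 and the major urinary protein gene Mup20 at -1.87. Without Mutant_HFD 1, where the difference is that of Control_HFD 4 alone from 3 controls, 2 of the 20 female-biased genes passed (Prlr higher and Sult2a1 lower), as did 14.7% of all genes. Without Control_HFD 4, where it is that of 3 mutants from Mutant_HFD 1 alone, 10 of the 20 were higher, and 5.65% of all genes passed. Both counts rest on a single library and bear on no series difference.

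The genes most like the 5 continuous-GH genes were found from deviations from group means over the 16 livers. They were Cyp2c69, with a Pearson correlation of 0.949 to the mean of the class, Fam126a (0.939), Cyp2c40 (0.927), Papss2 (0.926) and Tafa2 (0.923). Cyp2c69 and Cyp2c40 are female-biased P450 genes that were also on the female-biased list. Without Mutant_HFD 1, a choice made after seeing the data, the correlations of these 5 were 0.835, 0.696, 0.738, 0.894 and 0.641 in the same order, and they ranked 9, 118, 69, 2 and 238 among the genes compared. For the 2 tested pulsatile-GH genes they were Tenm3 (0.881), Zfp976 (0.877), Ifrd1 (0.876), Nxpe2 (0.861) and Vps35l (0.848). Without Mutant_HFD 1 these 5 ranged from 0.767 for Ifrd1 to 0.846 for Vps35l. Among the 7 genes themselves the highest correlation was between Abcd2 and Slco1a1, genes of opposite classes, at 0.868, above that of A1bg and Nipal1. Slco1a1 and Prom1 had a correlation of -0.274 and Slco1a1 and Elovl3, the pair of the pulsatile class, one of -0.259. Without Mutant_HFD 1 these were 0.802, -0.73 and -0.461. The correlations describe 16 or 15 libraries that share title series.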

How the data were processed

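Liver RNA was sequenced in 16 libraries, and the authors assigned reads to the mm10 mouse transcriptome with kallisto in gene mode and tested genes with sleuth. Versions, annotation and filter are not given in the sources used here. The deposited values are a signal per gene. They were inferred to be TPM adjusted by size factors, because they are fractional and column totals differ. Depth is unknown, so no counting interval was computed, and precision is the spread between libraries. The labels do not say that libraries come from separate animals, so p-values measure the spread between these samples. Kallisto divides reads among similar transcripts by estimation, so values of near-identical genes are uncertain.

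Genes that reached 1 in at least 4 libraries (12704) were tested on log2(value + 1) with limma 3.58.1 in R 4.3.3, with group means of 4 groups, a variance trend and Benjamini-Hochberg adjustment over all tested genes. Fold changes on that scale understate those of low genes. The fit was tested on simulated data. Title series contrasts came from a fit of 4 series means with genotype within diet. Positions are from GENCODE M21 and promoters from RefSeq, both on GRCm38. The members and lists were chosen with earlier results of these data known. All members and Esr1 are named, with at most 4 passing genes per other list and comparison by smallest adjusted p, and the 5 genes most like each class. Genes of the other lists that are counted at an unadjusted p are not named. A gene that this rule would name is not reported here. Tests planned on Cyp4a12a and Cyp4a12b were not run, since neither was analysed here. Alternatives were another scaling, other filters, another pseudocount, library weights, fewer groups, the title series as a term and leaving out each library.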

Additional observations from a re-analysis of the deposited data

Results flagged for a closer look

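In groups of 4 livers, 1 sample was called far from the others when its gap to the nearest exceeded Dixon's critical share of the group's range on the log2 scale. Of 36 groups (9 genes including Esr1, 4 groups each), 4 held such a sample. For a single group chance gives about 1 in 20. The 36 groups share the same libraries, so their count cannot be set against that share. In mutants on HFD the sample called was Mutant_HFD 1, for A1bg at 11.4 adjusted TPM (gap 0.964 of the range), for Abcd2 at 17 (0.879) and for Esr1 at 6.42 (0.912). In controls on HFD it was Control_HFD 4 for Slco1a1 at 275 (0.846). Both libraries are the only ones of their genotype in their title series, and the part of the series in these values was not tested.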

How the results depend on the processing

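No paired analysis was possible because the labels give no replicate numbers that pair libraries across groups. Of 35 member values (7 genes in 5 comparisons), 22 kept their sign under every alternative run. Over 576 recomputed values, 516 kept sign and side of the threshold, 9 newly passed it and 51 changed sign. Depth is unknown, so it sets no stated limit.

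Library weights gave 4 members past the threshold for genotype on HFD (A1bg, Abcd2, Nipal1 and Slco1a1) and 1 for diet in controls (Abcd2). Control_HFD 4 (0.228) and Mutant_HFD 1 (0.329) had the lowest weights. With weights, genotype on HFD thus largely coincides with title series, and diet in controls with the lower HFD series. Genes past the threshold with weights were 6 (genotype, chow), 3926 (genotype, HFD), 2264 (diet, controls) and 9 (diet, mutants). With only the groups compared they were 6, 1, 4 and 1 in that order. For genotype on chow a filter at 5 or the series term gave 1. For diet in mutants, leaving out Mutant_Chow 1 and 2 gave 2. Between the chow series, no filter gave 2.

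Signs changed as follows, and the cause was not tested. Weights: Hao2 0.08 for genotype on chow and -0.05 for diet in mutants, and in the interaction Prom1 0.29 and Elovl3 0.07. Scaling by median of ratios: Elovl3 -0.01 for genotype on HFD. Pseudocount 0.1: Prom1 0.07 in the interaction. Series term: Elovl3 -0.01 and Slco1a1 -0.49 for genotype on HFD, and A1bg -1.99 and Nipal1 -0.41 in the interaction. Without Mutant_Chow 1 and 2, chosen after seeing the data: Hao2 0.37, Elovl3 -0.07 and Slco1a1 0.32 for genotype on chow, Hao2 -0.49, Abcd2 -0.13 and Slco1a1 -0.45 for diet in mutants, and Prom1 0.66, Nipal1 0 and Elovl3 0.08 in the interaction.

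Leaving out each library in turn gave 0 to 3 members past the threshold for genotype on HFD, 0 to 1 for diet in controls and 2 to 4 between the HFD series. Genes past the threshold ranged from 1 to 14 for genotype on chow (14 without Mutant_Chow 3), 2 to 141 for genotype on HFD (141 without Mutant_HFD 1), 0 to 928 for diet in controls (928 without Control_HFD 4), 0 to 2 for diet in mutants, 715 to 3011 between the HFD series (715 without Control_HFD 4, 1862 without Mutant_HFD 1, each leaving a single library on 1 side of the contrast) and 0 to 2 between the chow series. Values that changed sign ranged as follows. Genotype on chow: Abcd2 -0.02 to 0.19, Elovl3 -0.03 to 0.3, Hao2 -0.51 to 0.15. Genotype on HFD: Elovl3 -0.13 to 0.12. Diet in mutants: Abcd2 -0.02 to 0.42, Slco1a1 -0.04 to 0.83, Hao2 -0.26 to 0.39. Interaction: Prom1 -0.37 to 0.35, Nipal1 -0.17 to 0.47, A1bg -0.31 to 2.4, Elovl3 -0.29 to 0.04. HFD series: Elovl3 -0.2 to 0.29, Hao2 -0.09 to 0.73, Prom1 -1 to 1.48. Chow series: Hao2 -0.39 to 0.05, Prom1 -0.88 to 0.13, A1bg -1.42 to 0.12. The series contrasts under other settings were added after seeing the data.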
